A study of Mus musculus with 11 samples.

Results

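The genes described here are 39 genes of tumor stroma, transforming growth factor beta (TGF-beta) signaling and blood vessels, out of the 758 genes measured in 11 MC38 tumors. They were chosen by name: every measured collagen, TGF-beta, SMAD and VEGF gene, and a list of fibroblast, endothelial, angiopoietin, plasminogen activator and related genes. *Flt1*, which the list also names, was not among these 758 genes. MC38 is a mouse colon carcinoma cell line, and 100000 to 200000 of its cells had been placed under the skin of mice aged 6 to 8 weeks. Treatment began 5 days later: 6 of the tumors came from mice given hetIL-15, the heterodimer of the cytokine IL-15 with its receptor alpha chain, at 3 µg per intraperitoneal injection and 3 injections per week, and 5 from mice given PBS. No altered allele is named for either group. Each tumor was taken 3 h after injection 4, and RNA of the whole tumor was measured by nCounter, a method in which color-coded probes bound to the mRNA are counted one by one without amplification, using the PanCancer Immune Profiling Panel. Carcinoma cells, stroma and leukocytes therefore contributed to each value together, and fewer cells of a type and less RNA per cell cannot be told apart.

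Fibroblasts and pericytes lay down the collagens and fibronectin on which a tumor grows, and TGF-beta is a main inducer of these matrix genes. The ligand binds paired type I and type II receptors, which phosphorylate SMAD2 and SMAD3, and these enter the nucleus with SMAD4. Endothelial growth is driven by VEGF through its receptor KDR and is steadied or loosened by the angiopoietins through TIE2. In tumors, a dense stroma and abnormal vessels are known for limiting the entry of T cells.

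The values were deposited as log2 values after quantile normalization, which gives every tumor the same distribution, so a value is a level relative to the other panel genes of that tumor. Median log2 values per tumor lay between 7.66 and 7.68, and the counts behind them were not assigned to tumors here, so that depth is unknown. Differences are log2 fold changes of hetIL-15 over PBS tumors from limma, with the standard error (SE), and p values were adjusted over all 758 genes by Benjamini-Hochberg. On the first principal component of all genes (21.3% of the variance) PBS replicates 4 and 5 stood apart at −8.48 and −12.31, against −4.06 to 9.42 in the other tumors.

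No stroma, TGF-beta or vessel gene passed an adjusted p of 0.05 in either direction, on a panel where 2.11% of all genes passed, 1.72% as higher and 0.396% as lower in hetIL-15 tumors. The smallest adjusted p was 0.278, for *Pdgfc*. Before adjustment, 7 of 39 genes lay under 0.05, which is 17.9% of them beside 11.9% of all genes. Of these, 6 were on the side of higher values in hetIL-15 tumors (*Tgfb1*, *Col4a1*, *Cd34*, *Angpt1*, *Smad3* and *Fn1*; 15.4% beside 7.39% of all genes), and *Pdgfc* was on the side of lower values (2.56% beside 4.49%). The 6 became 1 without PBS replicate 1, 1 without PBS replicate 5, and 0 without PBS replicates 4 and 5 together, where *Pdgfc* was no longer under 0.05 either. *Pdgfc* was also the only one of the 39 whose groups did not overlap, and over all genes the groups did not overlap for 2.51%, with 1.85% higher and 0.66% lower in hetIL-15 tumors.

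The 39 log2 fold changes ran between −0.58 for *Tek* and 0.77 for *Angpt1*. Their median was −0.08, beside −0.03 over all genes, and 16 were positive (41.0%, beside 43.5% of all genes) and 23 negative. The median ran between −0.12 and −0.03 on leaving out 1 tumor and was 0.03 without PBS replicates 4 and 5. The sign of 8 genes with small differences turned on leaving out 1 tumor (*Angpt2*, *Nrp1*, *Smad2*, *Smad4*, *Tgfb2*, *Tgfb3*, *Thy1* and *Vegfc*). The values also set a limit on what may have gone undetected: the 95% interval lay within a 2-fold change in either direction for 34 of 39 genes (87.2%), beside 75.7% of all genes. The intervals of *Angpt1*, *Tek*, *Vwf*, *Lyve1* and *Cdh1* reached past a 2-fold change. The residual SD between tumors of a group had a median of 0.27 over the 39 genes, beside 0.34 over all genes. Only *Cdh1* was low in signal (a mean log2 value under 5.18). The cut is the lower quartile of the means of all genes, so 25.1% of all genes lie under it by definition. It is not a floor of detection, since no background counts were used. This cut is on the mean over tumors, and single values of other genes can lie under it. *Tek* and *Vwf* were both at 4.40 in hetIL-15 replicate 5.

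**Figure D1:**
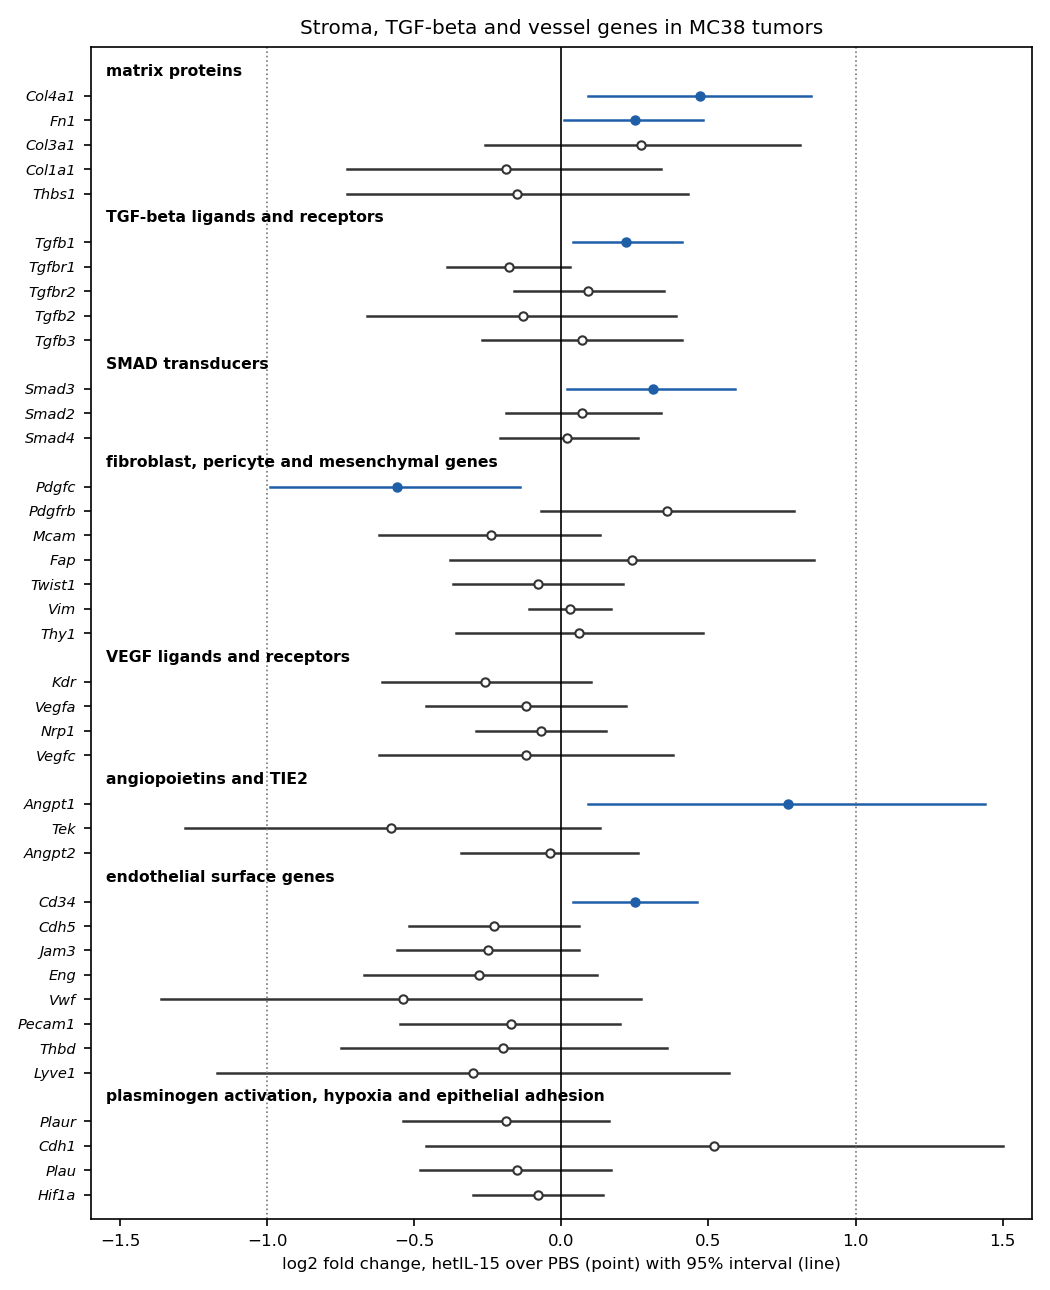
Log2 fold change of hetIL-15 over PBS tumors (x axis, 6 against 5 tumors) for the 39 genes, grouped by role, with points for the limma estimates and lines for their 95% intervals; filled blue points have an unadjusted p under 0.05 and dotted lines mark a 2-fold change. Of the intervals, 34 stay between the dotted lines, and the filled points are 6 to the right of 0 and *Pdgfc* to its left.

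Among the 5 matrix proteins, *Col4a1* had the smallest p. It encodes a chain of the type IV collagen of basement membranes, which surround vessels and epithelia. Its log2 values were 9.44, 9.97, 9.33, 10.06, 9.35 and 9.87 in hetIL-15 replicates 1 to 6, against 9.16, 9.32, 9.55, 8.99 and 8.99 in PBS replicates 1 to 5. The groups overlapped: 3 hetIL-15 tumors lay above every PBS tumor, and the other 3 lay below PBS replicate 3. hetIL-15 over PBS came to 0.47 on the log2 scale (SE 0.17, 95% interval 0.09 to 0.85, adjusted p = 0.318, exact permutation p = 0.0368).

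*Fn1*, which encodes fibronectin, a glycoprotein that ties cells to collagen, had log2 values of 14.56, 14.69, 14.19, 14.56, 14.37 and 14.69 in hetIL-15 tumors, against 14.19, 14.37, 14.37, 14.19 and 14.19 in PBS tumors. With only 4 different values among 11 tumors, these are steps of rank: *Fn1* was between the gene ranked 5 and the gene ranked 8 of every tumor, and quantile normalization gives each rank one value. The log2 fold change was 0.25, with an SE of 0.11 and an adjusted p of 0.398, and 4 of 6 treated tumors lay above every PBS tumor.

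The fibrillar collagens of fibroblasts did not share a direction. *Col3a1* (type III collagen) had log2 values of 14.19, 14.09, 13.82, 13.93, 13.02 and 13.93 in hetIL-15 tumors, against 13.50, 13.82, 13.93, 12.84 and 13.69 in PBS tumors, a difference of 0.27 (SE 0.24, adjusted p = 0.757). *Col1a1* (type I collagen) ran between 11.98 and 13.44 with a median of 12.81 in hetIL-15 tumors, against 12.79, 13.07, 13.18, 12.49 and 13.29 in PBS tumors, a difference of −0.19 (SE 0.24, adjusted p = 0.839). Both collagens were lowest among the treated tumors in hetIL-15 replicate 5, without which the log2 fold change was 0.44 for *Col3a1* and −0.03 for *Col1a1*. *Col3a1* was lowest of all in PBS replicate 4, without which it was 0.10, and it was 0.08 without PBS replicates 4 and 5. *Thbs1*, thrombospondin 1, a matricellular protein that restrains angiogenesis and activates latent TGF-beta, had a log2 fold change of −0.15 and overlapping groups. The median over the 5 matrix genes was 0.25, with 3 positive and 2 negative, but 0.10 without PBS replicate 4 and 0.08 without PBS replicates 4 and 5.

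Of the 5 TGF-beta ligands and receptors, *Tgfb1*, the ligand most widely made by leukocytes and stroma, had the smallest p. Its log2 values were 11.33, 11.56, 11.35, 11.63, 11.42 and 11.43 in hetIL-15 tumors, against 11.16, 11.35, 11.20, 11.22 and 11.22 in PBS tumors. Every hetIL-15 tumor lay above 4 of 5 PBS tumors, and the overlap came from PBS replicate 2. The log2 fold change was small, at 0.22 (SE 0.08, 95% interval 0.04 to 0.41, adjusted p = 0.318), a 1.17-fold difference. An exact two-sided permutation test over all 462 groupings of the tumors gave p = 0.0130, which adjusted over all genes was 0.252.

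To set beside these values, the promoters of *Pdgfc* and *Tgfb1*, the genes with the smallest p in each direction, were read from RefSeq (mouse build GRCm38.p6) as windows of 300 bases, with 250 bases before the start of transcription and 50 after it, 5′ to 3′ on the gene's strand. A promoter was at hand for 20 of the 39 genes. Capitals mark matches on either strand to GGGCGG (GC box), CAGAC (SMAD element) and ACGTG (a form of the core of hypoxia response elements). Other forms of this core were not searched, and hypoxia core below means ACGTG. No match overlapped another in these windows. The *Tgfb1* window lies at chr7:25686752-25687051 (plus strand) and the *Pdgfc* window at chr3:81036166-81036465 (plus strand).
Tgfb1: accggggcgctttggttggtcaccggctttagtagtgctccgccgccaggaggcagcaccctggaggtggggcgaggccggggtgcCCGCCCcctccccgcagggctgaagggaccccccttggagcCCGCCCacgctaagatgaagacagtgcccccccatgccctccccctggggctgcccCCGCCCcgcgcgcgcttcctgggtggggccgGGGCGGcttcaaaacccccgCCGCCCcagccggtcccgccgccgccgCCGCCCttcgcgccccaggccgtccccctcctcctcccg
Pdgfc: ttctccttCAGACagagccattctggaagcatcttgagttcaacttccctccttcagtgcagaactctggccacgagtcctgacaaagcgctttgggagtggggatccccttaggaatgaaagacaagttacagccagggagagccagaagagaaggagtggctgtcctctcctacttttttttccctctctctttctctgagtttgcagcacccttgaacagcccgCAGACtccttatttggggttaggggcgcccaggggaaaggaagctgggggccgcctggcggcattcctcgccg
The *Tgfb1* window, with 77.0% G and C, held 6 GC boxes and neither of the other motifs, and the *Pdgfc* window, with 55.0% G and C, held 2 SMAD elements and neither of the others. Among all 32851 promoter windows, 35.7% held a GC box, 49.6% a SMAD element and 19.6% a hypoxia core. The 20 genes had 22 windows, since *Tgfbr1* and *Vegfa* have 2 each, of which 12 (54.5%) held a GC box, 11 (50%) a SMAD element and 4 (18.2%) a hypoxia core. A match is a run of letters and not a bound site.

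The other ligands had smaller differences relative to their spread. *Tgfb2* had a log2 fold change of −0.13 (SE 0.24) and *Tgfb3* of 0.07 (SE 0.15), with overlapping groups in both. *Tgfb3* turned to −0.01 without PBS replicate 1. The type I receptor gene *Tgfbr1* had log2 values of 9.66, 9.58, 9.44, 9.68, 9.56 and 9.54 in hetIL-15 tumors, against 9.64, 9.79, 9.62, 9.73 and 10.04 in PBS tumors. Of the 6 hetIL-15 tumors, 4 lay below every PBS tumor, and the log2 fold change was −0.18 (SE 0.09, adjusted p = 0.513, exact permutation p = 0.0238, 0.322 after adjustment over all genes). The type II receptor gene *Tgfbr2* had a log2 fold change of 0.09 (SE 0.12). The list had a median of 0.07 (−0.01 without PBS replicate 1), with 3 positive and 2 negative, and all 5 intervals within a 2-fold change.

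All 3 measured SMAD genes had positive log2 fold changes, and their intervals lay within a 2-fold change. *Smad3* had log2 values of 8.98, 9.43, 8.94, 9.39, 9.54 and 9.41 in hetIL-15 tumors, against 8.93, 9.10, 8.84, 9.12 and 8.90 in PBS tumors. The treated tumors fell into 4 above every PBS tumor and 2, replicates 1 and 3, within the PBS range. The log2 fold change was 0.31 (SE 0.13, adjusted p = 0.379, exact permutation p = 0.0476). *Smad2*, the other receptor-activated SMAD of this pathway, had a log2 fold change of 0.07 (SE 0.12), and the shared partner *Smad4* of 0.02 (SE 0.11). The positive sign of both was not stable: *Smad2* was at −0.01 without PBS replicate 2, and *Smad4* at −0.03 without PBS replicate 3 and −0.01 without hetIL-15 replicate 2 or 5.

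Of 27 other genes listed for the TGF-beta superfamily and its signaling, 5 were measured, and none passed in either direction. These were *Runx1*, *Runx3*, *Map3k7*, *Mapk8* and *Mapk14*. Their median log2 fold change was −0.03 (0.03 without PBS replicate 4), and the smallest p was that of the transcription factor *Runx1* (log2 fold change −0.14, adjusted p = 0.752).

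Among the 7 fibroblast, pericyte and mesenchymal genes, *Pdgfc* stood out. It encodes a platelet-derived growth factor that is activated outside the cell by proteolysis and acts on PDGF receptor alpha of fibroblasts. Its log2 values were 9.55, 8.87, 9.52, 8.74, 9.60 and 9.74 in hetIL-15 tumors, against 9.88, 9.88, 9.79, 10.14 and 9.81 in PBS tumors. Every hetIL-15 tumor lay below every PBS tumor, with hetIL-15 replicates 2 and 4 far below the rest and hetIL-15 replicate 6 close to the lowest PBS tumor. The difference came to −0.56 on the log2 scale (SE 0.19, 95% interval −0.99 to −0.14, adjusted p = 0.278). The exact permutation p was 0.00649 (smallest possible 0.00216), which adjusted over all genes was 0.197. The unadjusted p stayed under 0.05 on leaving out any 1 of the 11 tumors, but not without PBS replicates 4 and 5 together.

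*Pdgfrb*, the PDGF receptor of pericytes, ran the other way, with log2 values of 7.52, 8.46, 7.14, 7.94, 7.79 and 7.60 in hetIL-15 tumors, against 7.37, 7.28, 7.33, 7.46 and 7.46 in PBS tumors. Of the treated tumors, 5 lay above and hetIL-15 replicate 3 lay below every PBS tumor, so that the spread was wider in hetIL-15 tumors (SD 0.44) than in PBS tumors (SD 0.08), and the log2 fold change was 0.36 (SE 0.19, adjusted p = 0.535). *Fap*, fibroblast activation protein, had a log2 fold change of 0.24 (SE 0.28), and *Mcam*, an adhesion molecule of pericytes and endothelium, of −0.24 (SE 0.17). *Thy1* (a fibroblast and T cell surface protein), *Twist1* (a mesenchymal transcription factor) and *Vim* (vimentin) lay between −0.08 and 0.06. *Vim* held only 2 values, 14.69 and 14.76, as the gene ranked 4 or 5 in every tumor. The list had a median of 0.03 (−0.01 without hetIL-15 replicate 1), with 4 positive and 3 negative.

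**Figure D2:**
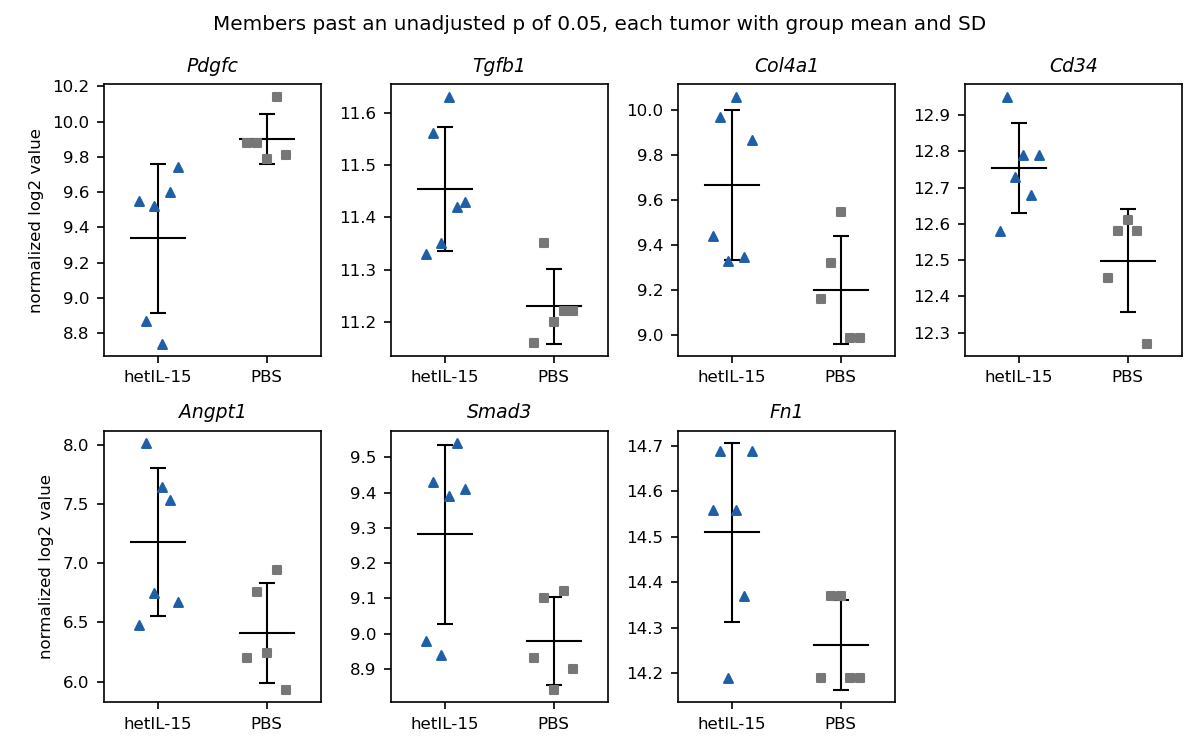
Normalized log2 value (y axis, own range in each panel) of the 7 genes with an unadjusted p under 0.05 in each hetIL-15 tumor (blue triangles, n = 6) and PBS tumor (gray squares, n = 5), in replicate order within a group, with horizontal bars for the means and whiskers for the SD. *Pdgfc* is the one panel without overlap, from 8.74 to 9.74 in hetIL-15 tumors and from 9.79 to 10.14 in PBS tumors.

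Within the treated group a pair of tumors often held the extreme values. hetIL-15 replicates 2 and 4 held both of the 2 highest values of all 11 tumors in 4 genes (*Tgfb1*, *Col4a1*, *Angpt1* and *Pdgfrb*) and both of the 2 lowest in another 4 (*Pdgfc*, *Plaur*, *Thbs1* and *Angpt2*). That is 20.5% of the 39 genes, beside 10.7% of all genes. Without these 2 tumors, a choice made after their values were seen, no gene was higher at an unadjusted p of 0.05 and *Pdgfc* alone was lower (log2 fold change −0.30, adjusted p = 0.446). *Col4a1* was then at 0.30, *Angpt1* at 0.44 and *Tgfb1* at 0.15 on the log2 scale, with adjusted p of 0.795, 0.891 and 0.795.

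The 4 measured genes of the VEGF system had negative log2 fold changes in the full set of tumors, none past the test, but the shared sign was lost without PBS replicates 4 and 5, where only *Kdr* was negative (−0.11) and the median was 0.02, beside −0.12 with all tumors. *Kdr*, the main signaling receptor for VEGF on endothelium, had log2 values of 7.78, 7.37, 8.03, 7.86, 7.49 and 8.12 in hetIL-15 tumors, against 8.0, 7.77, 7.88, 8.17 and 8.34 in PBS tumors, with a difference of −0.26 on the log2 scale (SE 0.16, adjusted p = 0.6). Only hetIL-15 replicates 2 and 5 lay below the PBS range. The ligand genes *Vegfa* and *Vegfc*, the second a growth factor of lymphatic vessels, had a log2 fold change of −0.12 each (SE 0.16 and 0.23). Without PBS replicates 4 and 5 they were at 0.07 and 0.04, and *Vegfc* was at 0.04 without hetIL-15 replicate 1. *Nrp1*, a co-receptor for VEGF, was at −0.07 (SE 0.10), and this sign came from PBS replicate 5, without which it was 0.00. Scaled to the housekeeping genes it was 0.02.

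*Vegfa* and *Hif1a*, which encodes the oxygen-regulated subunit of the transcription factor that induces *Vegfa*, were followed tumor by tumor. *Vegfa* had log2 values of 10.52, 10.77, 10.55, 10.50, 11.12 and 10.86 in hetIL-15 tumors, against 10.64, 10.57, 10.73, 11.12 and 11.15 in PBS tumors. *Hif1a* had 12.24, 12.27, 12.33, 12.11, 12.33 and 12.49 in hetIL-15 tumors, against 12.33, 12.21, 12.27, 12.44 and 12.61 in PBS tumors. Both genes were highest in PBS replicate 5 and lowest in hetIL-15 replicate 4, and over the 11 tumors they correlated with r = 0.75 and Spearman's rho = 0.80 (permutation test, adjusted p over 19 pairs of 0.0432 for r and 0.0307 for rho). Without the 2 tumors farthest from the median of *Vegfa*, r was 0.75. Within the 6 hetIL-15 tumors alone it was 0.56.

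The windows of this pair are shown for the hypoxia core, with capitals for the same 3 motifs and with 1 overlap between matches in each. *Hif1a* lies at chr12:73907617-73907916 (plus strand), and the upstream of 2 *Vegfa* starts lies at chr17:46032328-46032627 (minus strand).
Hif1a: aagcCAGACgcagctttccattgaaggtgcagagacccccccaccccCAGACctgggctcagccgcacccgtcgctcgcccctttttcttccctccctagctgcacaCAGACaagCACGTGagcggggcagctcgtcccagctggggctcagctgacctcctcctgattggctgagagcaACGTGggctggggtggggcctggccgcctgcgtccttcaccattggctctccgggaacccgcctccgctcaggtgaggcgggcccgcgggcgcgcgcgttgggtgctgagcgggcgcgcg
Vegfa: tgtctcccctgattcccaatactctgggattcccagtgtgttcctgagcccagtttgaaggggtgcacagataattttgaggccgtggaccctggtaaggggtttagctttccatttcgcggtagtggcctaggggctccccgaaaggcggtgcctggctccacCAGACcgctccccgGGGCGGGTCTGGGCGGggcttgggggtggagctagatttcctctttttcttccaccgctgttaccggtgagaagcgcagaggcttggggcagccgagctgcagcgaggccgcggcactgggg
The *Hif1a* window held 3 hypoxia cores, of which a pair on opposite strands formed 1 palindrome, and 3 SMAD elements. The *Vegfa* window held 2 GC boxes and 2 SMAD elements and no hypoxia core, which says only that these letters are not in this window. The window of the other *Vegfa* start, at chr17:46025114-46025413 (minus strand), held 1 hypoxia core.

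*Angpt1*, the ligand that activates TIE2 and is made by pericytes and other mesenchymal cells, had the largest positive log2 fold change of the 39 genes. Its log2 values were 6.48, 8.01, 6.75, 7.64, 7.53 and 6.67 in hetIL-15 tumors, against 6.20, 6.76, 6.24, 6.94 and 5.93 in PBS tumors. Replicates 2, 4 and 5 of hetIL-15 lay above every PBS tumor and the other 3 within the PBS range. The difference was 0.77 on the log2 scale, or 1.7-fold (SE 0.31, 95% interval 0.09 to 1.44, adjusted p = 0.358, exact permutation p = 0.0519).

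*Tek*, which encodes TIE2, had the largest negative log2 fold change, −0.58 (SE 0.32, 95% interval −1.28 to 0.13, adjusted p = 0.54). Its log2 values were 6.48, 5.34, 5.33, 5.39, 4.40 and 5.97 in hetIL-15 tumors, against 6.20, 5.92, 6.56, 5.88 and 5.75 in PBS tumors. Of the treated tumors, 4 lay below every PBS tumor, hetIL-15 replicate 5 by more than 1 on the log2 scale. On leaving out 1 tumor the log2 fold change ran between −0.78 and −0.36, the latter without hetIL-15 replicate 5. *Angpt2*, the context-dependent antagonist stored in endothelial cells, was at −0.04 (SE 0.13), and at 0.03 without PBS replicate 1.

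Of the 8 endothelial surface genes, 7 had a negative log2 fold change and *Cd34* a positive one. The median was −0.24, and it ran between −0.31 and −0.17 on leaving out 1 tumor. Of the 8 genes, 7 stayed negative when hetIL-15 replicate 5 was left out and when PBS replicates 4 and 5 were. The same held on scaling to housekeeping genes, where the median was −0.15. Without hetIL-15 replicates 2 and 4 the median was −0.13 and 6 were negative, with *Thbd* at 0.01. *Cd34*, a sialomucin of endothelium, hematopoietic progenitors and some fibroblasts, had log2 values of 12.58, 12.95, 12.73, 12.79, 12.68 and 12.79 in hetIL-15 tumors, against 12.45, 12.58, 12.61, 12.58 and 12.27 in PBS tumors. Of the hetIL-15 tumors, 5 lay above every PBS tumor, and the difference was 0.25 on the log2 scale (SE 0.10, 95% interval 0.04 to 0.46, adjusted p = 0.327, exact permutation p = 0.0108).

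*Cdh5*, the cadherin of endothelial junctions, had log2 values of 8.06, 7.54, 7.78, 7.57, 7.53 and 8.11 in hetIL-15 tumors, against 7.97, 7.96, 7.88, 8.16 and 8.03 in PBS tumors. The PBS tumors lay close together, 4 treated tumors lay below all of them, and hetIL-15 replicates 1 and 6 lay within their range, giving a difference of −0.23 (SE 0.13, adjusted p = 0.55). *Vwf*, von Willebrand factor of endothelium and platelets, had 6.67, 6.16, 5.71, 5.78, 4.40 and 6.22 in hetIL-15 tumors, against 6.37, 6.84, 6.77, 5.73 and 6.09 in PBS tumors, with a difference of −0.54 (SE 0.37, adjusted p = 0.641). Without hetIL-15 replicate 5, the tumor with 4.40, *Vwf* was at −0.26, and without hetIL-15 replicate 1 at −0.71.

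The remaining endothelial genes lay between −0.30 and −0.17. *Pecam1* (CD31, of endothelium, platelets and leukocytes) had a log2 fold change of −0.17 (SE 0.17). On leaving out 1 tumor it ran between −0.25 and −0.07, the latter without hetIL-15 replicate 5. *Eng*, endoglin, a co-receptor for TGF-beta ligands on dividing endothelium, was at −0.28 (SE 0.18), and the junction protein gene *Jam3* at −0.25 (SE 0.14). *Thbd*, the anticoagulant receptor thrombomodulin, was at −0.20 (SE 0.25). *Lyve1*, the hyaluronan receptor of lymphatic endothelium and some macrophages, was at −0.30 (SE 0.39). It was at −0.02 without hetIL-15 replicate 4, whose log2 value was 5.39, against 6.69 to 7.37 in the other treated tumors. It was at −0.59 without PBS replicate 4, whose log2 value was 5.88, against 7.06 to 7.61 in the other PBS tumors.

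**Figure D3:**
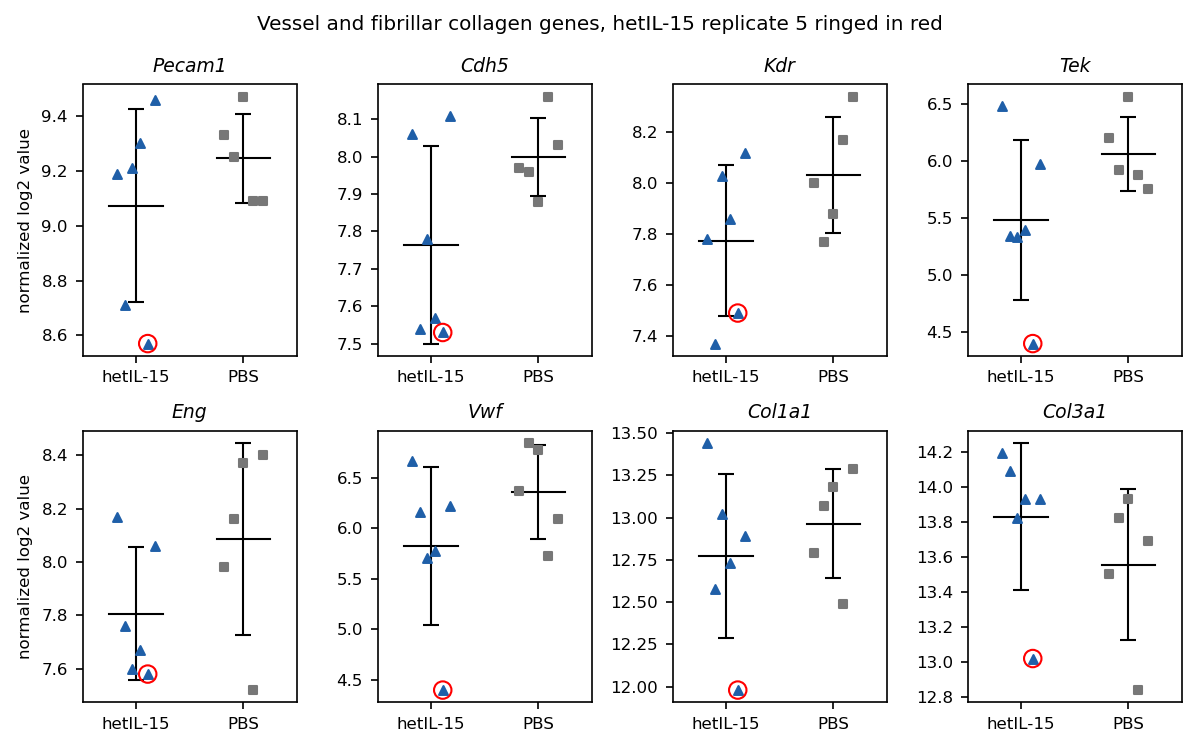
Normalized log2 value (y axis, own range in each panel) of 6 vessel genes and 2 fibrillar collagen genes in each hetIL-15 tumor (blue triangles, n = 6) and PBS tumor (gray squares, n = 5), with bars for the means and whiskers for the SD; red rings mark hetIL-15 replicate 5. The ringed tumor has the lowest value of all 11 in *Pecam1*, *Cdh5*, *Tek*, *Vwf* and *Col1a1*, at 4.40 in both *Tek* and *Vwf*.

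hetIL-15 replicate 5 held the lowest value of all 11 tumors in 9 of the 39 genes. hetIL-15 replicate 4 held the lowest in 8, and PBS replicate 5 the highest in 12. The shares over all genes are not given here, so these counts cannot be called particular to the 39 genes. Summed on the linear scale, the 4 vessel markers *Pecam1*, *Cdh5*, *Kdr* and *Tek* ran between 766 and 1324 in hetIL-15 tumors, against 1138 to 1276 in PBS tumors, and 5 fibroblast markers between 13031 and 30731 in hetIL-15 tumors, against 13741 to 25752 in PBS tumors. hetIL-15 replicate 5 was the lowest tumor in both sums, in the sum of 7 macrophage markers (3840 to 5651 in hetIL-15 tumors, against 4025 to 5282 in PBS tumors) and in the leukocyte gene *Ptprc* (471 to 851, against 480 to 930 in PBS tumors). Not every marker was low there: the macrophage gene *Mrc1* was at 9.45, its highest log2 value of all 11 tumors, and the fibroblast genes *Pdgfrb* (7.79) and *Fap* (7.53) lay above their hetIL-15 means of 7.74 and 7.18. In a linear sum the most abundant genes weigh most. In hetIL-15 tumors *Col1a1* and *Col3a1* had mean log2 values of 12.77 and 13.83, against 7.18 to 8.76 for *Fap*, *Pdgfrb* and *Thy1*. The fibroblast sum therefore largely repeats the collagen values given above. *Pecam1* was the largest part of the vessel sum. The part of other cell types in the vessel values was not tested.

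Platelets also carry *Vwf* and *Pecam1*. Their 3 measured markers summed to between 95 and 191 in hetIL-15 tumors, against 107 to 210 in PBS tumors, and *Itga2b*, which defines them, was low in signal. Of the 4 measured epithelial markers, *Epcam*, *Cdh1* and *Ceacam1* were low in signal, although MC38 is a carcinoma line, and the sum ran between 87.4 and 231 in hetIL-15 tumors, against 110 to 146 in PBS tumors. None of the listed markers of vessels, fibroblasts, macrophages, platelets, epithelium or mast cells passed an adjusted p of 0.05. Neither did *Ptprc* (log2 fold change −0.01), the only leukocyte gene listed. Markers of single lymphocyte types were not listed, so this does not speak for them.

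Genes of plasminogen activation and epithelial adhesion did not pass either. *Plaur*, the urokinase receptor of macrophages and invasive cells, had a log2 fold change of −0.19 (SE 0.16), and its ligand *Plau*, urokinase, of −0.15 (SE 0.15). *Cdh1*, epithelial cadherin, had 5.64, 4.94, 3.75, 6.58, 5.19 and 4.64 in hetIL-15 tumors, against 4.17, 4.76, 4.46, 4.17 and 5.46 in PBS tumors, a log2 fold change of 0.52 with an SE of 0.44, which was 0.23 without hetIL-15 replicate 4. Of the treated tumors, 2 lay above and 1 below every PBS tumor. *Hif1a* was at −0.08 (SE 0.10). The median over the 4 genes was −0.11 (−0.04 without PBS replicate 5), with 1 positive and 3 negative.

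Several of the genes varied together across tumors. Of 20 listed pairs, 19 were measured, and 5 passed an adjusted p of 0.05 on Pearson's r over 11 tumors (permutation test with 100000 resamples). *Thbs1* and *Plaur* had r = 0.81 and rho = 0.81 (adjusted p = 0.0432 and 0.0307), with r = 0.65 without the 2 farthest tumors. *Pecam1* and the leukocyte gene *Ptprc* had r = 0.71 and rho = 0.82 (adjusted p = 0.0473 and 0.0307), with r = 0.67 without the 2 farthest tumors. These pairs and *Vegfa* with *Hif1a* passed on both measures, and all 3 passed also with group means removed.

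For the other pairs the relation rested more on a few tumors. *Col1a1* and *Thy1* had r = 0.75 (adjusted p = 0.0432) and rho = 0.64 (adjusted p = 0.188), with r = 0.41 without hetIL-15 replicates 1 and 5. *Cdh5* and *Tek* had r = 0.72 (adjusted p = 0.0439) and rho = 0.61 (adjusted p = 0.198), with r = 0.50 without hetIL-15 replicates 2 and 5, and r = 0.63 with group means removed (adjusted p = 0.106). *Col1a1* and *Col3a1* had r = 0.68 (adjusted p = 0.0712) and rho = 0.45 (adjusted p = 0.46). For this pair r was 0.38 without hetIL-15 replicates 1 and 5, and 0.83 with group means removed (adjusted p = 0.0194).

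*Pecam1* was also paired with 2 endothelial genes. With *Kdr* it had r = 0.61 (adjusted p = 0.107) and with *Cdh5* r = 0.57 (adjusted p = 0.132). Within the 6 hetIL-15 tumors r was 0.93 and 0.70, and over all tumors but hetIL-15 replicates 2 and 5 it was −0.35 and −0.21, so that both relations rested on those tumors. *Col1a1* with *Tgfb1* had r = −0.33 and *Col1a1* with *Fn1* r = −0.03, neither past the test (adjusted p = 0.558 and 0.988). All of these are relations between relative levels within a tumor, since every tumor has the same distribution.

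**Figure D4:**
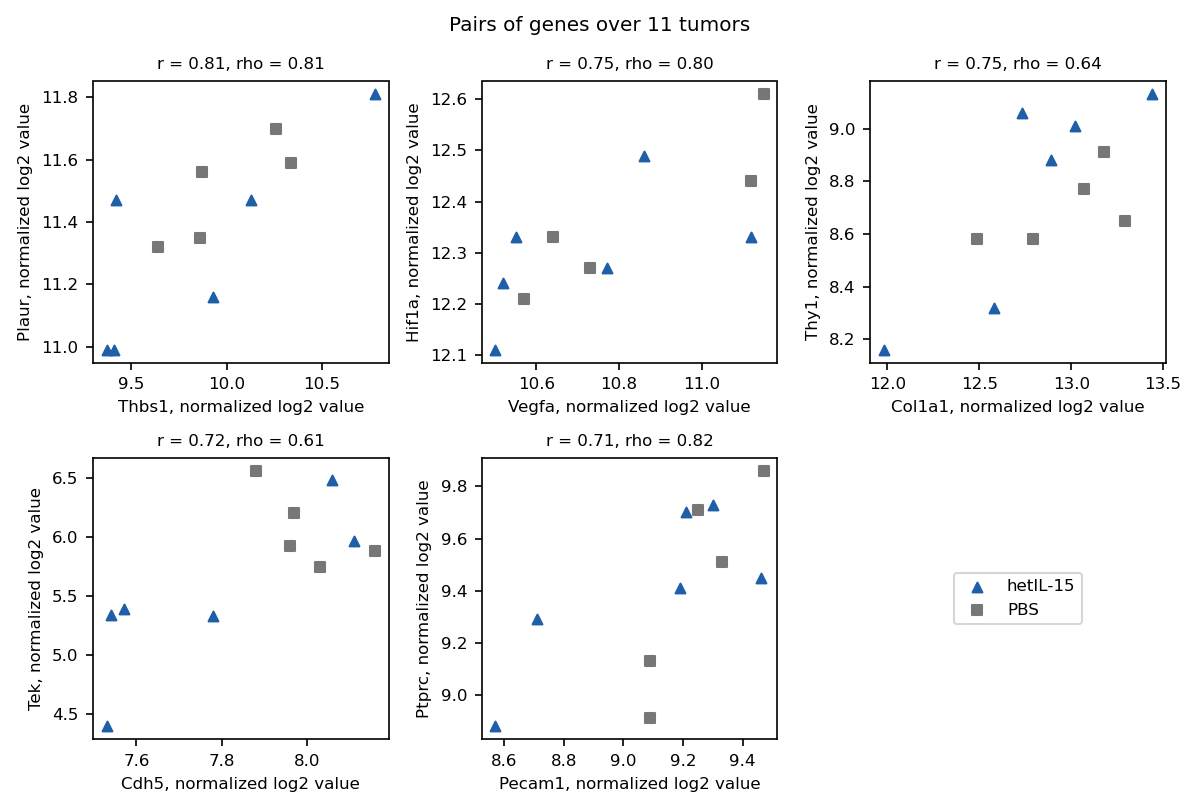
Normalized log2 values of the 5 pairs of genes past an adjusted p of 0.05 on Pearson's r, 1 point per tumor, for hetIL-15 (blue triangles, n = 6) and PBS (gray squares, n = 5). Values rise together in each panel, with r from 0.71 to 0.81, and tumors of both groups lie along the same trend for *Thbs1* with *Plaur*.

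Beyond these genes, further genes of vessels, stroma and hypoxia were listed, and none of those measured passed the test in either direction. The lists do not cover the whole panel: *Tie1*, *Dll4*, *Cspg4* and *Vhl*, for example, were measured but not listed. Of 23 further endothelial and leukocyte adhesion genes, 9 were measured, with a median log2 fold change of 0.17, which was −0.01 without hetIL-15 replicate 2 and 0.06 without PBS replicate 1. *Notch1*, a receptor in vessel branching and in leukocytes, had log2 values between 9.54 and 10.23 in hetIL-15 tumors, against 9.32 to 9.60 in PBS tumors, with a difference of 0.38 (SE 0.13, adjusted p = 0.271). The tetraspanin gene *Cd81*, named after its values were seen, ran between 12.56 and 13.44 in hetIL-15 tumors, against 12.36 to 12.52 in PBS tumors, without overlap (log2 fold change 0.48, SE 0.18, adjusted p = 0.318), and its 2 highest tumors were again hetIL-15 replicates 2 and 4.

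Of 36 further stromal and matrix genes, 14 were measured, with a median log2 fold change of −0.10 (−0.01 without PBS replicate 5). *Itga6*, the laminin receptor chain that anchors cells to basement membrane, had the smallest p (log2 fold change 0.34, SE 0.14, adjusted p = 0.358). Of 21 further hypoxia and angiogenic genes, 9 were measured, with a median of 0.04 (−0.11 without PBS replicate 2). *HK2*, the hexokinase gene induced by hypoxia, had the smallest p (log2 fold change −0.31, SE 0.15, adjusted p = 0.469).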

How the data were processed

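RNA of 11 tumors was measured, 6 hetIL-15 and 5 PBS. The authors removed low expressed genes, leaving 758 of 780, then log transformed and quantile normalized; these deposited log2 values were used as given. Probe annotation came from the deposited count sheet, whose 11 count columns match no tumor by name and were not used, so no depth, interval of counts or count model is given. The study describes them as tumors of 6 hetIL-15-treated and 5 PBS-treated mice.

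Groups were compared with limma 3.58.1 in R 4.3.3 on all genes without covariates, with Benjamini-Hochberg adjustment (the methods name limma with Bonferroni, run as an alternative). Single genes also had exact two-sided permutation tests. Correlations, promoter motifs and figures used Python 3.11.15, scipy 1.17.1 and matplotlib 3.10.9. The fit was tested on simulated data. Genes and lists were chosen with earlier results of these data known. Genes given in detail were those past a test at an unadjusted p of 0.05, those without overlap, the smallest p and largest fold change of each list, and those with a tumor far from its group; others were named to describe their lists or after their values were seen. Alternatives were other scalings, filters, priors, weights, tests, a replicate block and tumors left out.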

Additional observations from a re-analysis of the deposited data

Results flagged for a closer look

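In 8 of 78 sets of values (39 genes in 2 groups, 10.3%) 1 tumor lay far from the rest of its group by Dixon's ratio. For independent, normally distributed values chance gives this in about 1 of 20 sets. These values are steps of rank, some of the genes vary together, and the share over all genes was not computed. The count can therefore not be called an excess in the 39 genes. Values are log2. In hetIL-15 tumors, *Col3a1* was 13.02 in replicate 5 (13.82 to 14.19 in the others), *Lyve1* 5.39 in replicate 4 (6.69 to 7.37), *Tgfb3* 8.13 in replicate 3 (8.55 to 8.79) and *Vim* 14.69 in replicate 4 (14.76 in the others, a single step of rank). In PBS tumors, *Pdgfc* was 10.14 in replicate 4 (9.79 to 9.88 in the others) and *Tgfbr2* was 9.30 there (9.55 to 9.58). *Nrp1* was 10.79 in PBS replicate 5 (10.40 to 10.49), and *Tgfb1* was 11.35 in PBS replicate 2 (11.16 to 11.22). Leaving out the flagged PBS tumor of *Pdgfc* gave a log2 fold change of −0.50, and leaving out the flagged hetIL-15 tumor of *Lyve1* gave −0.02. For *Lyve1*, leaving out PBS replicate 4, which was not flagged, gave −0.59.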

How the results depend on the processing

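Under the 20 alternatives other than Bonferroni and the exact Mann-Whitney test, 0 of 39 genes passed an adjusted p of 0.05 in either direction, as in the reported fit of limma, where 7 passed an unadjusted one. Bonferroni can only call fewer genes, and the smallest adjusted p of the Mann-Whitney test over all genes was 0.173 (4 of the 39 at an unadjusted p), so neither bears on stability. Numbers past an unadjusted p were less stable. The 6 higher genes were 1 with the replicate number as a block, 0 without PBS replicates 4 and 5, 0 without hetIL-15 replicates 2 and 4 (chosen after seeing the data), and 1 to 7 on leaving out 1 tumor. The count was 1 when PBS replicate 1 or 5 was left out, 2 for hetIL-15 replicate 2 and 3 for hetIL-15 replicate 4. The 1 lower gene was 3 with the replicate block, 0 without PBS replicates 4 and 5, and 1 to 3 on leaving out 1 tumor (2 for PBS replicate 2, PBS replicate 4 or hetIL-15 replicate 6, 3 for hetIL-15 replicate 1). The numbers did not pair tumors (correlations of −0.05 to 0.13, 1 of 5 PBS tumors closest to its own number). *Nrp1* was −0.07 as reported, 0.02 on housekeeping scaling, 0.00 without PBS replicates 4 and 5, and −0.10 to 0.00 on leaving out 1 tumor (0.00 for PBS replicate 5). *Tgfb3* was 0.07 as reported and −0.01 to 0.16 on leaving out 1 tumor (−0.01 for PBS replicate 1); the cause was not tested. *Cdh5* with *Tek* lost its call with group means removed (r = 0.63). Housekeeping scaling moved the median of all genes by 0.09. Low signal limits *Cdh1* and the hetIL-15 replicate 5 values of *Tek* and *Vwf*, and shared rank values limit *Vim* and *Fn1*.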
